A study of Mus musculus with 19 samples.

Results

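The 35 genes described here encode lysosomal hydrolases and membrane proteins, subunits of the vacuolar proton pump, autophagy proteins and the transcription factors that regulate them. They were taken by symbol from a list that was chosen with earlier results of these data known. Shares of members beside those of all genes are therefore descriptive. For each gene 1 probe set was kept, the one with the highest mean over the 19 arrays. All 35 were measured among 22180 genes. Raptor is the subunit that defines the kinase complex mTORC1, and its gene is Rptor. RNA was measured on microarrays in sorted C57BL/6 mouse thymocytes of 3 populations, each from Raptorfl/fl animals and from WT animals. The arrays comprised 3 Raptorfl/fl and 4 WT arrays of immature single-positive (ISP) cells, 3 and 3 of γδ T cells, and 3 and 3 of DN3a cells. The titles call the deleted group Raptorfl/fl, while the genotype label reads Rptor-/-. Those cells came from a CD2-cre mouse crossed with a Raptorfl/fl mouse. CD2-driven Cre acts in lymphocytes; deletion in other cells of the thymus was not measured here. The labels give no ages, and do not say whether WT animals carried Cre or floxed alleles. ISP cells were sorted as CD4-CD8+TCRβ-, DN3a cells as CD25hi double-negative cells without CD44, CD28 or either T-cell receptor, and the γδ gate lists only markers to be absent (CD4, CD8, TCRβ, NK1.1 and Gr1). Whether replicates came from separate animals is not stated, so the p-values reflect how far these samples scatter, and that scatter may be technical.

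Lysosomes break down macromolecules with acid hydrolases, in a lumen that the vacuolar ATPase keeps acidic by pumping protons. Autophagy brings cytoplasmic cargo to the lysosome inside double-membraned autophagosomes. mTORC1 sits on the lysosomal surface when amino acids are plentiful; there it inhibits the ULK1 kinase complex that starts autophagy, and it keeps the transcription factors TFEB, TFE3 and MITF in the cytoplasm by phosphorylation. When mTORC1 is inactive, TFEB enters the nucleus and activates many lysosomal and autophagy genes through the CLEAR element, a short palindrome in their promoters.

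The promoter sequences of the members that carry this palindrome are shown because the comparison of Raptorfl/fl with WT cells concerns genes of this kind. RefSeq promoters (build GRCm38.p6, 250 bases before the gene start and 50 bases from it) were available for 30 of the 35 members; Npc1, Ctsb, Atp6v1b2, Atp6v1h and Becn1 had no entry. The letters TCACGTGA were found in 7 of the 30 members (23.3%), in 8 of 91 further lysosome and autophagy genes (8.79%), and in 304 of 27025 promoters of the table (1.12%). The motif reads the same on both strands. The shorter CACGTG, which lies inside TCACGTGA, occurred in 11 of 30 members (36.7%), 24 of 91 further genes (26.4%) and 2187 of all promoters (8.09%). A match is a description of the letters in this window and not evidence of binding. Capitals mark the motif, and the Ctsa window ends inside a second copy. The 250 bases upstream of Mcoln1 (a lysosomal cation channel; chr8:3500269-3500518, plus strand) and of Gla (an alpha-galactosidase; chrX:134601006-134601255, minus strand) are given in full, since these members passed the test in ISP cells.
Mcoln1: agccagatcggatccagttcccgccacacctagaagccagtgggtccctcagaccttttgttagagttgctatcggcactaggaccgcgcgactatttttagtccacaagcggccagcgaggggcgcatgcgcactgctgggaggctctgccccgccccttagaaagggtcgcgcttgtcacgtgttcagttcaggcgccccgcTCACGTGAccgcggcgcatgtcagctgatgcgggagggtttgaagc
Gla: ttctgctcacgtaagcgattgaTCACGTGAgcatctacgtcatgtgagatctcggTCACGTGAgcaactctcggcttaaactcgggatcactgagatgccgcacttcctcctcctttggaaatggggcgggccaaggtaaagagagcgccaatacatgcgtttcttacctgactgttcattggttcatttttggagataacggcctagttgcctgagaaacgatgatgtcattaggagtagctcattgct
The other members with the palindrome are shown as 40 bases around it. They are Ctsa (chr2:164833744-164833783, plus strand), Ctsd (chr7:142387903-142387942, minus strand), Atp6v0d1 (chr8:105566045-105566084, minus strand), Atp6v0e (chr17:26676382-26676421, plus strand) and Atp6v1a (chr16:44139368-44139407, minus strand).
Ctsa: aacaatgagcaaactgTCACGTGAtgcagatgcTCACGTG
Ctsd: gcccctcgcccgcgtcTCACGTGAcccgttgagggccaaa
Atp6v0d1: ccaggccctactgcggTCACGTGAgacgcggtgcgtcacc
Atp6v0e: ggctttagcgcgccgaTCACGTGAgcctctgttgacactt
Atp6v1a: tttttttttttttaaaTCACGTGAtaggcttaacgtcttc
Ctss and Gabarapl1 also passed the test in ISP cells and hold neither motif in this window. Among the members that passed and hold a motif, Mcoln1 rose in ISP cells, and Gla, Lamp1 and Atg5 fell. Lamp1 and Atg5 hold only the shorter motif, which is in capitals here. Lamp1 (chr8:13159081-13159160, plus strand) has 4 copies in these 80 bases before its start, and Atg5 (chr10:44268259-44268338, plus strand) has 1.
Lamp1: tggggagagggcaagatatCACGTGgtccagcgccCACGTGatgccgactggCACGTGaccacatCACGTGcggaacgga
Atg5: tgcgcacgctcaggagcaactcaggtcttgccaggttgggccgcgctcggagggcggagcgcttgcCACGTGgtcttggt

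**Figure D1:**
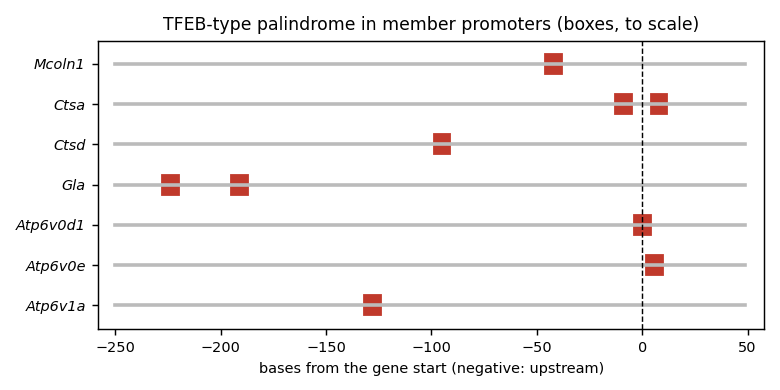
Position of TCACGTGA (boxes, to scale) in the promoters of the 7 members that hold it, in bases from the gene start, which is counted as 0. The motif starts at -46 in Mcoln1, at -228 and -195 in Gla, and within 13 bases of the start in Ctsa, Atp6v0d1 and Atp6v0e.

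The deposited values fell into 2 sets. Array medians were 3.80 to 3.88 log2 units for the 7 ISP arrays and 6.03 to 6.13 for the remaining 12, and ISP levels were therefore not set against those of other populations. In 62.0% of genes some of the 7 ISP arrays had exactly equal values, against 0.803% among the other 12 arrays; 15 members were affected in ISP cells, none of them among the 7 that passed the test there. Within groups, genes had a median SD of 0.0883 to 0.117. Rptor was lower in Raptorfl/fl than in WT cells of each population, with log2 differences of -0.24 in ISP, -0.58 in DN3a and -0.30 in γδ T cells (limma adjusted p = 0.0384, 5.98e-04 and 0.0489). Its single arrays overlapped between the ISP groups. The exact permutation p, two-sided, was 0.114 in ISP cells. It was 0.1 in DN3a and in γδ T cells, which is as low as this number of arrays can give. The 5 measured DN3a markers were lower in WT γδ than in WT DN3a cells (log2 difference -4.28 for Ptcra and -3.85 for Rag2), and of 3 measured γδ markers Sox13 and Id3 were each higher by 2.78 and Cd3e was lower (-0.24). The receptor genes Trdc and Tcrg-C1 were not analysed here. In bulk samples, fewer cells of a type and less RNA per cell cannot be told apart.

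In ISP cells, which are αβ-lineage thymocytes just before the double-positive stage, Raptor deletion went with changes in both directions. The channel gene Mcoln1 and the protease gene Ctsb rose, while the membrane gene Lamp1, the hydrolase genes Ctss and Gla and the autophagy genes Gabarapl1 and Atg5 fell. Altogether 7 of 35 members (20%) passed an adjusted p of 0.05 (limma with Benjamini-Hochberg adjustment over all genes), where 12.4% of all genes passed. There were 2 higher and 5 lower members, against 5.87% and 6.57% of all genes in these directions. Genes were called dim where no group compared had a mean above the median of its set of arrays. With dim genes left out, 9 of 32 members and 3340 of 11273 genes passed. The share of members was then no higher than that of the genes kept. The median log2 difference (Raptorfl/fl minus WT) was -0.02 over the members and -0.004 over all genes. The groups did not overlap for 7 members (20%), against 16.7% of all genes. Leaving out 1 array gave 3 members without Raptorfl/fl replicate 2, 4 without Raptorfl/fl replicate 1 or 3 or WT replicate 2, 3 or 4, and 6 without WT replicate 1. With only the 7 ISP arrays in the fit, 1 member (Mcoln1, adjusted p = 0.0143) and 1313 genes passed, against 7 members and 2759 genes in the fit of all 19 arrays.

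**Figure D2:**
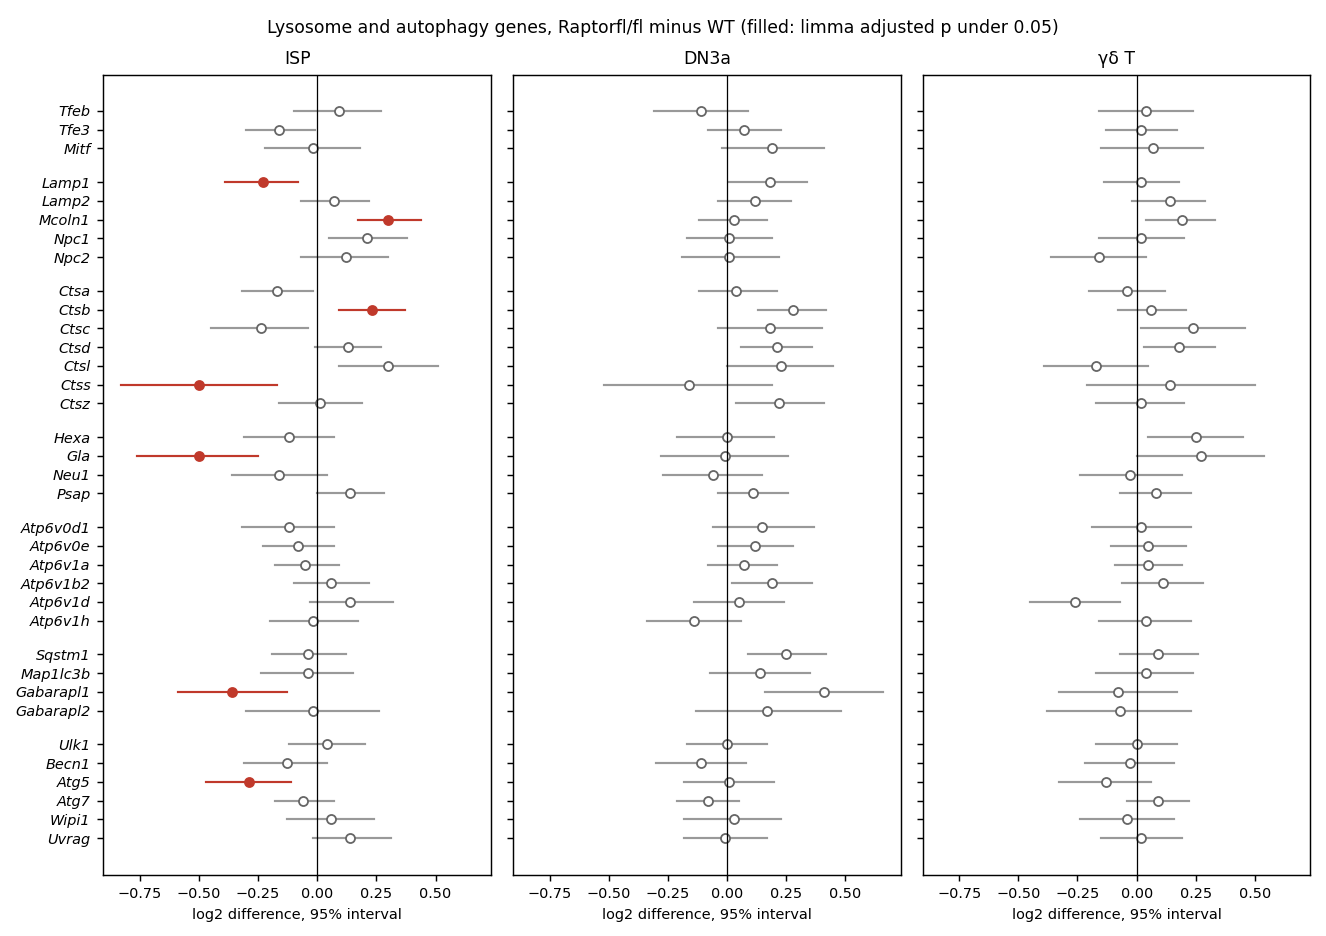
Log2 difference of Raptorfl/fl minus WT (x axis) for each of the 35 members (rows, grouped by role) in ISP, DN3a and γδ T cells, as the limma estimate with its 95% interval. Filled points have an adjusted p under 0.05: there are 7 in ISP cells and 0 in each of the others.

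Mcoln1, the lysosomal channel that releases calcium, had 7.18, 7.19 and 7.23 log2 units in Raptorfl/fl ISP cells, against 6.90, 6.83, 6.95 and 6.92 in WT ISP cells. All Raptorfl/fl arrays lay above all WT arrays. The difference was 0.30 ± 0.06 (SE), a 1.23-fold higher level (adjusted p = 0.00307), and its adjusted p lay between 9.90e-04 and 0.0207 under all 14 alternatives. Lamp1, an abundant glycoprotein of the lysosomal membrane, had 8.51, 8.82 and 8.80 in Raptorfl/fl and 8.93, 8.98, 8.91 and 8.95 in WT ISP cells. The groups did not overlap, but Raptorfl/fl replicate 1 lay far below the other Raptorfl/fl arrays. Lamp1 fell by 0.23 ± 0.07 (ratio 0.850, adjusted p = 0.0397). It was -0.14 with quantile normalization (adjusted p = 0.261) and -0.13 without Raptorfl/fl replicate 1 (0.296), and the call was also lost without any one WT array (-0.25 to -0.22, adjusted p 0.0537 to 0.0882). Of the other 3 genes of this role, the cholesterol exporter Npc1 differed by 0.21 (adjusted p = 0.0950), its partner Npc2 by 0.12 and the membrane protein gene Lamp2 by 0.07.

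Among the 7 proteases, 1 rose and 1 fell. Ctsb, a cysteine cathepsin, had 8.23, 8.27 and 8.24 in Raptorfl/fl and 8.15, 8.01, 7.94 and 7.98 in WT ISP cells. The Raptorfl/fl values were tightly grouped and all higher. The difference was 0.23 ± 0.07, or 1.17-fold (adjusted p = 0.0252). The call was lost when any one of the 3 Raptorfl/fl arrays or WT replicate 3 or 4 was left out, with differences of 0.20 to 0.24, and with median centring (0.21, adjusted p = 0.0595). Ctss, the cathepsin that trims the invariant chain in antigen-presenting cells, had 4.18, 4.07 and 4.49 in Raptorfl/fl and 4.49, 4.47, 4.81 and 5.20 in WT ISP cells. Here the groups overlapped slightly. Ctss fell by 0.50 ± 0.16 (ratio 0.707, adjusted p = 0.0436), and by 0.35 without WT replicate 4 (adjusted p = 0.135) or 0.41 without Raptorfl/fl replicate 2 (0.200); without Raptorfl/fl replicate 1 or WT replicate 3 the adjusted p was 0.128 and 0.0947, and with quantile normalization 0.0605. Ctsl, another cysteine cathepsin, had 8.68, 8.67 and 8.56 in Raptorfl/fl and 8.51, 8.25, 8.25 and 8.32 in WT ISP cells, with no overlap, and just missed the threshold at a difference of 0.30 (adjusted p = 0.0531). The remaining differences were -0.24 for Ctsc, which activates granule proteases, -0.17 for Ctsa, 0.13 for Ctsd and 0.01 for Ctsz.

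Gla was the one of 4 glycosidase and activator genes that passed. It had 6.03, 5.64 and 5.87 in Raptorfl/fl and 6.56, 6.12, 6.62 and 6.11 in WT ISP cells. All Raptorfl/fl arrays were lower, although WT arrays themselves split into a higher and a lower pair. Gla fell by 0.50 ± 0.12 (ratio 0.706, adjusted p = 0.00777), and by 0.40 without Raptorfl/fl replicate 2 (adjusted p = 0.0664). None of the 6 proton pump genes passed (limma), with differences between -0.12 for Atp6v0d1 and 0.14 for Atp6v1d. At an unadjusted p under 0.05 there were 0 of 6, against 21.9% of all genes, a share too low for this 0 to set 6 genes apart. The transcription factor genes Tfeb, Tfe3 and Mitf differed by 0.09, -0.16 and -0.02, and none of them passed. Tfeb and Mitf were dim in both ISP groups.

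Of the autophagy genes, Gabarapl1 and Atg5 fell. Gabarapl1 encodes an Atg8-family protein that is coupled to the autophagosome membrane. It had 4.83, 4.88 and 5.02 in Raptorfl/fl and 4.99, 5.34, 5.54 and 5.19 in WT ISP cells. The highest Raptorfl/fl value overlapped the lowest WT value. The difference was -0.36 ± 0.11 (ratio 0.779, adjusted p = 0.0386). It lost its call without any one Raptorfl/fl array or without WT replicate 2 or 3 (-0.41 to -0.27). Atg5, part of the enzyme that couples Atg8 proteins to lipid, had 6.74, 6.65 and 6.37 in Raptorfl/fl and 6.96, 6.88, 6.83 and 6.85 in WT ISP cells. The groups were separate, with the widest spread among Raptorfl/fl arrays. Atg5 fell by 0.29 ± 0.09 (ratio 0.817, adjusted p = 0.0303). Without Raptorfl/fl replicate 3 the difference was -0.19 (adjusted p = 0.254), and without WT replicate 1 or 2 the adjusted p was 0.0808 and 0.0570. The cargo receptor Sqstm1 and the Atg8 gene Map1lc3b each differed by -0.04, and the initiating kinase Ulk1 by 0.04. Over the 28 members that did not pass, differences lay between -0.24 and 0.30, with 95% intervals reaching from -0.45 to 0.51.

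**Figure D3:**
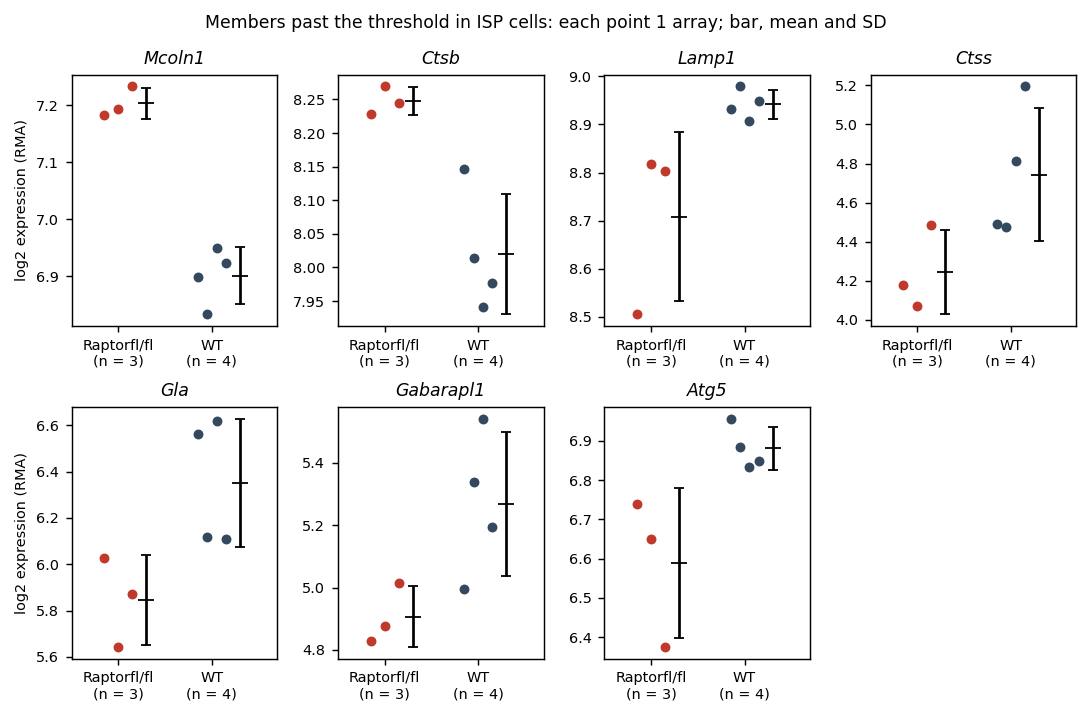
Log2 expression of the 7 members past the threshold in ISP cells, with 1 point per array and the group mean and SD beside the points (Raptorfl/fl, n = 3; WT, n = 4). The Mcoln1 groups are separated by more than the spread of either, Lamp1 and Atg5 each have 1 low Raptorfl/fl array, and Ctss and Gabarapl1 overlap.

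Single genes of the marker lists for other stages and cells moved with genotype in the ISP groups. Of 5 DN3a markers, 3 were higher in Raptorfl/fl ISP cells (Ptcra 0.63, Notch1 0.56, Il2ra 0.48) and Dntt was lower (-0.22). The mean log2 level over the 5 was 9.06 to 9.18 on Raptorfl/fl and 8.65 to 8.85 on WT arrays. Of 3 genes listed as γδ markers, Id3 was lower (-2.29, limma adjusted p = 1.07e-09), Cd3e was higher (0.22) and Sox13 did not pass (0.14, 0.586). Mean levels of the list, which include the fall of Id3, were 7.86 to 7.94 on Raptorfl/fl and 8.47 to 8.63 on WT arrays. Of 8 dendritic-cell markers, Ly6d was higher (0.58), with mean levels of 5.07 to 5.20 and 5.08 to 5.25. The X-linked Xist was higher by 0.66 (adjusted p = 3.19e-06), while the Y-linked Kdm5d and Uty did not pass. Of 10 macrophage and monocyte markers, Cd68 passed (-0.64), and their mean level was 3.73 to 3.82 on Raptorfl/fl and 3.70 to 3.87 on WT arrays. Their part in the ISP differences was not tested.

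In DN3a cells, the CD25hi stage at which αβ and γδ fates part, no member passed the limma threshold, where 0.983% of all genes did. At an unadjusted p under 0.05 there were 8 members, all higher (22.9%, against 10.6% of all genes): Ctsb, Gabarapl1, Sqstm1, Ctsd, Ctsz, Lamp1, Ctsl and Atp6v1b2. There were 4 without Raptorfl/fl replicate 2 (8.48% of all genes) or without WT replicate 1 (8.84%), and 5 with median centring (9.75%). With the mean of all probe sets of a gene there were 7 (10.4% of all genes). With dim genes left out there were 8 of 32 members, against 16.3% of the genes kept. Members named for DN3a and γδ genotype effects were chosen after their values were seen. The median difference was 0.07 over the members and 0.011 over all genes, and 25 of the 35 differences were positive, against 53.8% of all genes. With quantile normalization the member median was 0.03, with 22 positive. The groups did not overlap for 11 members (31.4%, against 17.1% of all genes), 8 of them with Raptorfl/fl higher.

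Ctsb had 10.85, 10.91 and 10.89 log2 units in Raptorfl/fl and 10.62, 10.62 and 10.58 in WT DN3a cells. Every Raptorfl/fl array was higher, by more than the spread of either group. The difference was 0.28 (adjusted p = 0.0705); it passed in 2 alternatives, with dim genes left out (adjusted p = 0.0288) and with a trended, robust variance (0.0206). Gabarapl1 had 10.00, 9.90 and 9.73 in Raptorfl/fl and 9.48, 9.44 and 9.49 in WT DN3a cells. The groups were separate, and the difference was 0.41 (adjusted p = 0.137). Sqstm1, the receptor that brings ubiquitinated cargo to autophagosomes, had 9.94, 9.90 and 9.73 in Raptorfl/fl and 9.64, 9.57 and 9.61 in WT DN3a cells. These groups also did not overlap (difference 0.25, adjusted p = 0.166). The aspartic protease Ctsd differed by 0.21 (adjusted p = 0.221), the cathepsin Ctsz by 0.22 (0.350) and Lamp1 by 0.18 (0.421), each without overlap. Ctsl (0.23, adjusted p = 0.462) and the pump subunit Atp6v1b2 (0.19, 0.410) overlapped. The other probe set of Atp6v1b2 differed by 0.0. By role, the median difference was 0.21 over the 7 proteases and over the 4 cargo receptor and Atg8 genes, 0.10 over 6 pump genes and -0.01 over 6 initiation and conjugation genes. The 95% intervals of the 35 differences reached from -0.52 to 0.66. Markers moved with genotype here as well: Ptcra, 1 of 5 DN3a markers, was higher by 0.68, Epcam, 1 of 5 stroma markers, by 0.67 and Sox13, 1 of 3 γδ markers, by 0.51. Mean levels on Raptorfl/fl and WT arrays were 11.35 to 11.41 and 11.10 to 11.16 over the DN3a list, 6.66 to 6.78 and 6.52 to 6.69 over the stroma list, and 9.38 to 9.47 and 9.13 to 9.28 over the γδ list. Their part in the member differences was not tested.

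In γδ T cells no member passed either (limma), where 3.05% of all genes did. At an unadjusted p under 0.05 there were 5 members, 4 higher and 1 lower (14.3%, against 16.3% of all genes). There were 2 without WT replicate 3 (14.4% of all genes) and 8 with quantile normalization (14.9%). Without Raptorfl/fl replicate 2 (12.7%) or 3 (13.8%) or WT replicate 2 (13.4%) there were 3. The median difference was 0.04 over the members and 0.004 over all genes; with median centring these were 0.08 and 0.045, and with quantile normalization 0.01 and -0.002. The groups did not overlap for 10 members (28.6%, against 21.0%), with 7 higher in Raptorfl/fl cells and 3 lower. Atp6v1d, a subunit of the pump's central shaft, had 9.22, 9.12 and 9.35 in Raptorfl/fl and 9.38, 9.45 and 9.63 in WT γδ T cells. Its groups were separate by a narrow gap, and the difference was -0.26 (adjusted p = 0.137); with quantile normalization of all arrays it was -0.31 (0.0382). Mcoln1 had 10.02, 9.95 and 10.08 in Raptorfl/fl and 9.83, 9.79 and 9.88 in WT γδ T cells. All Raptorfl/fl arrays were higher (difference 0.19, adjusted p = 0.171). Ctsd differed by 0.18 (adjusted p = 0.198), Ctsc by 0.24 (0.248) and Hexa, a subunit of beta-hexosaminidase, by 0.25 (0.198). Markers of the ISP list moved in this comparison too: 3 of 4 were lower in Raptorfl/fl γδ T cells (Cd8b1 -1.72, Mki67 -0.74, Cd8a -0.53), with mean levels of 7.09 to 7.47 on Raptorfl/fl and 7.97 to 8.21 on WT arrays. Of 5 DN3a markers Dntt was lower (-0.52), with mean levels of 7.93 to 8.18 and 7.93 to 8.05, and their part in the member differences was not tested. The 95% intervals of the 35 differences reached from -0.45 to 0.54.

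Differences between populations in the genotype effect were tested as interactions. Of 35 members, 2 passed for ISP minus DN3a (5.71%, against 7.01% of all genes), 1 for ISP minus γδ (2.86%, against 5.78%), and 0 for γδ minus DN3a (limma), where 0.600% of all genes passed. For γδ minus DN3a 4 members had an unadjusted p under 0.05 (11.4%, against 9.30% of all genes). There was 1 without DN3a WT replicate 1 (8.30% of all genes), and there were 2 without DN3a Raptorfl/fl replicate 3 (9.61%). Gabarapl1 had the opposite sign in ISP and DN3a cells, as the values above show: its effect differed by -0.77 ± 0.16 (adjusted p = 0.00677), and the adjusted p stayed below 0.05 in all 20 alternatives. For γδ minus DN3a the Gabarapl1 interaction was -0.49 (adjusted p = 0.320). Lamp1 had 9.84, 9.89 and 9.79 in Raptorfl/fl and 9.66, 9.62 and 9.70 in WT DN3a cells, higher with the deletion, where in ISP cells it was lower. Its interaction was -0.41 ± 0.11 (adjusted p = 0.0233), and -0.31 without ISP Raptorfl/fl replicate 1 (0.0558); the call was also lost with quantile normalization (-0.31) and without DN3a Raptorfl/fl replicate 2 (-0.39), WT replicate 1 (-0.41) or WT replicate 2 (-0.39). Gla had 7.84, 7.80 and 7.85 in Raptorfl/fl and 7.46, 7.68 and 7.54 in WT γδ T cells. There Raptorfl/fl arrays were higher (difference 0.27, adjusted p = 0.313), and in ISP cells they were lower. The interaction was -0.77 ± 0.18 (adjusted p = 0.0133) and passed in all 20 alternatives. The ISP interactions set differences from 2 normalizations against each other, and the part of that in these values was not tested.

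WT γδ T cells differed from WT DN3a cells in more members and by more than the genotypes did. The proteases Ctss, Ctsl, Ctsc and Ctsd, the pump genes Atp6v0d1, Atp6v0e and Atp6v1b2, and Lamp1, Npc2, Tfe3, Ulk1 and Gabarapl2 were higher in γδ T cells; Gabarapl1, Uvrag, Npc1 and Psap were lower. That is 16 of 35 members (45.7%), against 25.1% of all genes, with 12 higher and 4 lower (12.7% and 12.3% of all genes). With dim genes left out, 18 of 32 members and 5467 of 11568 genes passed. The share of members was then still above that of the genes kept, but by less than without this filter. The median difference (γδ minus DN3a) was 0.15 over the members and -0.004 over all genes. The groups did not overlap for 25 members (71.4%, against 38.9%). This comparison shares its WT arrays with the DN3a and γδ genotype comparisons.

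**Figure D4:**
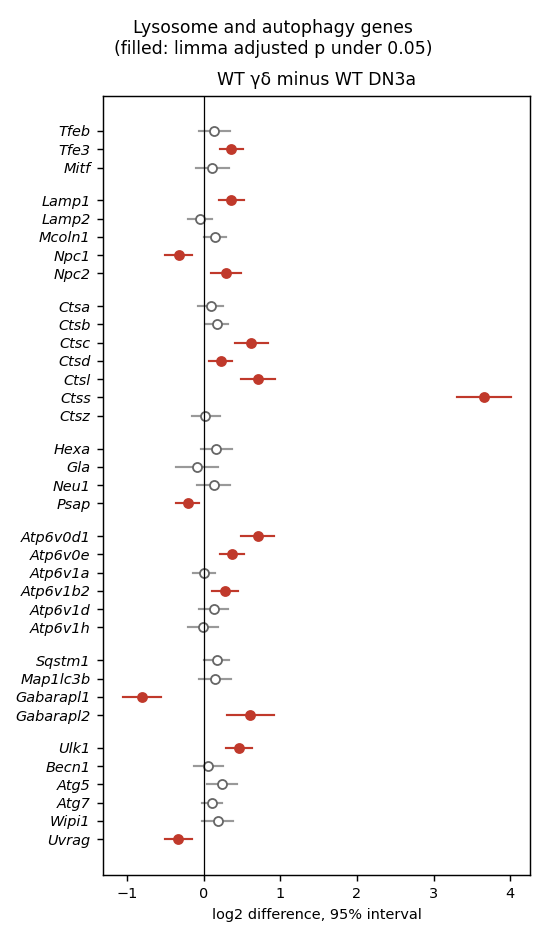
Log2 difference of WT γδ T cells minus WT DN3a cells (x axis) for each member (rows, grouped by role), as the limma estimate with its 95% interval. Filled points have an adjusted p under 0.05: Ctss stands alone at 3.66, and the other 15 lie between -0.81 and 0.70.

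Of 7 proteases, 4 rose and none fell. Ctss had 10.35, 10.30 and 10.48 log2 units in WT γδ T cells, against 6.58, 6.74 and 6.84 in WT DN3a cells. The gap between the groups was many times their spread. The difference was 3.66 ± 0.17, or 12.6-fold (adjusted p = 1.63e-12), and it lay between 3.59 and 3.92 under all alternatives. Raptorfl/fl cells had 10.73, 10.22 and 10.62 (γδ) and 6.34, 6.56 and 6.78 (DN3a), and these groups did not overlap either. Of 10 macrophage and monocyte markers, C1qb was higher in WT γδ T cells (0.41), and Lyz2 (-0.89) and Cd68 (-0.47) were lower; their mean level was 5.91 to 5.99 on γδ and 5.99 to 6.06 on DN3a arrays. Of 8 genes listed as dendritic-cell markers, H2-Aa was higher (0.74) and Ly6d lower (-4.23, near the -4.28 of the DN3a marker Ptcra). The others did not pass and lay between -0.17 (Siglech) and 0.30 (H2-Ab1). Mean levels of the list, which include the fall of Ly6d, were 6.20 to 6.39 and 6.69 to 6.76. Of 3 natural killer cell markers, Eomes (1.48) and Klrb1c (0.47) were higher, with mean levels of 5.64 to 5.72 in γδ and 4.90 to 5.12 in DN3a cells. Of 4 B-cell markers Cd79b was lower (-0.45), with mean levels of 6.10 to 6.19 and 6.06 to 6.24. Of 5 stroma markers Epcam was lower (-0.92), with mean levels of 6.34 to 6.49 and 6.52 to 6.69. Of 4 ISP markers Cd8b1 was higher (1.47), and Xist was lower (-0.51). The part of such cells in the Ctss level was not tested.

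Ctsl had 7.97, 8.04 and 7.68 in WT γδ and 7.05, 7.15 and 7.37 in WT DN3a cells. The groups were separate, and the difference was 0.70 ± 0.11 (1.63-fold, adjusted p = 3.32e-05). Ctsc, which activates granzymes and other granule proteases, had 9.60, 9.52 and 9.50 in WT γδ and 8.97, 8.88 and 8.92 in WT DN3a cells. All γδ arrays were higher, by 0.62 ± 0.10 on average (1.53-fold, adjusted p = 1.18e-04). Ctsd was higher by 0.22 (adjusted p = 0.0258), but leaving out any one of 5 arrays (all but γδ replicate 3) ended this call, with differences of 0.20 to 0.23, as did quantile normalization (0.19). Ctsb, Ctsa and Ctsz differed by 0.17, 0.09 and 0.02 and did not pass.

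In the proton pump 3 of 6 genes rose. Atp6v0d1, a subunit of the membrane sector, had 9.41, 9.53 and 9.31 in WT γδ and 8.83, 8.64 and 8.70 in WT DN3a cells. The groups were well separated (0.70 ± 0.10, 1.62-fold, adjusted p = 2.06e-05). Atp6v0e, a small subunit of the same sector, had 10.18, 10.13 and 10.15 in WT γδ and 9.73, 9.82 and 9.80 in WT DN3a cells. Its spread was small in both groups, and the difference was 0.37 ± 0.08 (1.29-fold, adjusted p = 0.00102). Atp6v1b2, part of the catalytic sector, had 9.85, 9.81 and 10.01 in WT γδ and 9.58, 9.60 and 9.65 in WT DN3a cells. The difference was 0.28 (adjusted p = 0.0143) and fell short without DN3a replicate 1 (0.26, 0.0512) or γδ replicate 3 (0.22, 0.0837). Its other probe set differed by 0.19. The catalytic subunit gene Atp6v1a differed by 0.00 and Atp6v1h by -0.01. Of the 3 pump genes with TCACGTGA in the promoter, Atp6v0d1 and Atp6v0e rose and Atp6v1a did not pass.

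Lamp1 had 10.09, 10.02 and 9.97 in WT γδ and 9.66, 9.62 and 9.70 in WT DN3a cells. The groups were separate (0.36, 1.29-fold, adjusted p = 0.00126). Npc2, a cholesterol-binding protein of the lumen, had 10.13, 10.01 and 9.99 in WT γδ and 9.64, 9.78 and 9.85 in WT DN3a cells. Its difference of 0.29 (adjusted p = 0.0330) ended as a call without γδ replicate 1 (0.24) or 2 (0.30), or DN3a replicate 1 (0.23) or 2 (0.30), and with median centring (0.27). Npc1, which takes cholesterol over from Npc2, had 8.88, 8.86 and 8.96 in WT γδ and 9.30, 9.22 and 9.16 in WT DN3a cells. The γδ arrays were lower (-0.33, ratio 0.796, adjusted p = 0.00602), but the gene's other probe set differed by 0.10, and with the mean of both the value was -0.11 (0.359). Tfe3, a relative of TFEB, had 7.87, 7.75 and 7.88 in WT γδ and 7.55, 7.38 and 7.49 in WT DN3a cells. All γδ arrays were higher (0.36, 1.28-fold, limma adjusted p = 8.24e-04). Tfeb (0.13) and Mitf (0.11) did not pass, and both were dim in WT γδ and WT DN3a cells. Psap, the precursor of the sphingolipid activators, had 11.65, 11.67 and 11.67 in WT γδ and 11.94, 11.84 and 11.84 in WT DN3a cells. The difference of -0.21 (adjusted p = 0.0372) was lost as a call with any one of the 6 arrays left out (-0.23 to -0.18). Lamp2, Mcoln1, Hexa, Gla and Neu1 did not pass.

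The autophagy genes moved in both directions. Gabarapl1 had 8.74, 8.56 and 8.67 in WT γδ and 9.48, 9.44 and 9.49 in WT DN3a cells, and Raptorfl/fl γδ T cells had 8.44, 8.47 and 8.81. Both γδ groups lay below both DN3a groups. The WT difference was -0.81 ± 0.12 (ratio 0.569, adjusted p = 2.34e-05). Its relative Gabarapl2 had 9.94, 9.95 and 9.98 in WT γδ and 9.14, 9.39 and 9.54 in WT DN3a cells. It was higher on every γδ array (0.60, 1.52-fold, adjusted p = 0.00347), so these Atg8 genes had opposite signs. Ulk1, the kinase that mTORC1 inhibits, had 9.55, 9.43 and 9.54 in WT γδ and 9.04, 9.02 and 9.09 in WT DN3a cells. The groups were separate (0.46, 1.37-fold, adjusted p = 2.15e-04), and between genotypes Ulk1 differed by 0.04 at most in any population. Uvrag, a partner of the autophagy lipid kinase, had 9.60, 9.50 and 9.78 in WT γδ and 10.00, 9.96 and 9.94 in WT DN3a cells. It fell by 0.34 (ratio 0.792, adjusted p = 0.00432). Sqstm1 (0.17), Map1lc3b (0.15), Atg5 (0.23), Atg7 (0.11), Becn1 (0.06) and Wipi1 (0.18) did not pass. Over the 19 members that did not pass, differences lay between -0.09 and 0.23, with intervals from -0.36 to 0.43.

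**Figure D5:**
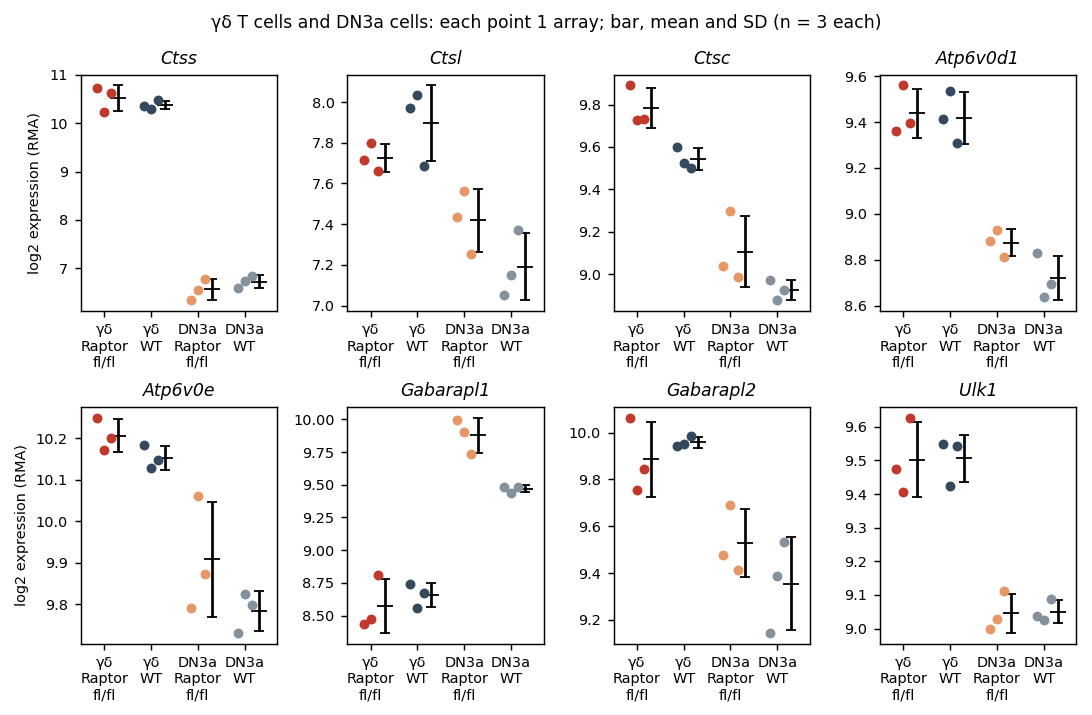
Log2 expression of 8 members in γδ T cells and DN3a cells of both genotypes, with 1 point per array and the group mean and SD (n = 3 each). In the 7 panels other than Gabarapl1 the γδ groups lie above the DN3a groups, and in Gabarapl1 they lie below.

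Beside the members, a wider list gave 109 further measured genes of the same pathways. This list too was chosen with earlier results of these data known. Its shares were not counted with dim genes left out. In ISP cells 23 of 109 passed (21.1%, against 12.4% of all genes), 13 higher and 10 lower in Raptorfl/fl. None of 12 further pump genes was among them (limma; 2 had an unadjusted p under 0.05, or 16.7%, against 21.9% of all genes). Slc17a5, the sialic acid exporter of the lysosome, had 6.14, 6.42 and 6.20 in Raptorfl/fl and 5.36, 5.27, 5.15 and 5.65 in WT ISP cells. The groups were far apart (0.89 ± 0.10, 1.86-fold, adjusted p = 4.94e-06). Lamtor1, which anchors mTORC1's activating complex to the lysosome, had 7.0, 7.12 and 7.08 in Raptorfl/fl and 7.54, 7.63, 7.64 and 7.44 in WT ISP cells, and fell by 0.50 (ratio 0.709, adjusted p = 3.24e-04). Sort1, a sorting receptor for hydrolases, fell by 0.72 (ratio 0.608). Among hydrolases, the lipase Lipa (0.42) and the phosphatase Acp2 (0.60) rose, and the glucuronidase Gusb fell by 0.44. Among autophagy genes, the conjugating enzyme Atg3 fell by 0.39, and Rb1cc1 (0.33), a scaffold of the ULK1 complex, and the cargo receptor Nbr1 (0.38) rose. With only the ISP arrays in the fit, Acp2, Rb1cc1 and Nbr1 did not pass; Rb1cc1 also lost its call without Raptorfl/fl replicate 2 (0.30) or 3 (0.29) or WT replicate 1 (0.30), and Nbr1 without Raptorfl/fl replicate 2 (0.37) or 3 (0.35).

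In DN3a cells 2 of the 109 passed (1.83%, against 0.983%). Lyz2, the lysozyme of myeloid cells, had 7.59, 7.98 and 8.40 in Raptorfl/fl and 6.77, 7.27 and 6.81 in WT DN3a cells. All Raptorfl/fl arrays were higher (1.04, 2.05-fold, adjusted p = 0.00346). Lyz2 is also 1 of 10 macrophage and monocyte markers, none of whose other 9 passed, and their mean level was 5.98 to 6.06 on Raptorfl/fl and 5.99 to 6.06 on WT arrays. Lipa had 9.34, 9.29 and 9.19 in Raptorfl/fl and 8.98, 8.77 and 8.90 in WT DN3a cells (0.39, 1.31-fold, adjusted p = 0.0372). That call was lost in the fit of the DN3a arrays alone and without Raptorfl/fl replicate 1 (0.36) or 2 (0.38) or WT replicate 2 (0.34) or 3 (0.40).

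In γδ T cells 4 of the 109 passed (3.67%, against 3.05%). Igf2r, the receptor that carries hydrolases to the lysosome, had 8.99, 8.86 and 9.02 in Raptorfl/fl and 8.51, 8.43 and 8.46 in WT γδ T cells. It rose by 0.49 (1.40-fold, adjusted p = 0.00189). Cd63, a tetraspanin of late endosomes, had 6.89, 7.10 and 7.05 in Raptorfl/fl and 6.54, 6.36 and 6.19 in WT γδ T cells, and rose by 0.65 (1.57-fold, adjusted p = 0.00708). For Cd63 the genotype effect was larger in γδ than in DN3a cells by 0.94 (interaction, adjusted p = 0.0178), and for Lipa the interaction was -0.64 (0.0199). The Cd63 interaction was lost without γδ Raptorfl/fl replicate 2 (0.90), γδ WT replicate 3 (0.85) or DN3a WT replicate 1 (0.90) or 2 (0.89); the Lipa interaction without γδ Raptorfl/fl replicate 2 (-0.59), γδ WT replicate 3 (-0.60), DN3a Raptorfl/fl replicate 1 (-0.61) or 2 (-0.64), or DN3a WT replicate 2 (-0.59). Flcn, which activates the Rag GTPases, was higher by 0.32 (adjusted p = 0.0408) and passed in 5 of 13 alternatives; leaving out any array but Raptorfl/fl replicate 3 ended the call (0.28 to 0.34). The protease Ctsk fell by 0.45 (adjusted p = 0.0208), and lost its call without Raptorfl/fl replicate 1 (-0.39) or 3 (-0.45) or WT replicate 2 (-0.41).

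Between WT γδ and WT DN3a cells 54 of the 109 passed (49.5%, against 25.1%), 40 higher and 14 lower. Among 31 hydrolases 15 were higher and 4 lower. The acid phosphatase Acp5 had 10.23, 10.24 and 10.15 in WT γδ and 8.01, 8.25 and 8.27 in WT DN3a cells (2.03, 4.07-fold, adjusted p = 4.03e-12). Lipa had 10.59, 10.62 and 10.74 in WT γδ and 8.98, 8.77 and 8.90 in WT DN3a cells (1.77, 3.40-fold). Ppt1, a thioesterase that removes palmitate from proteins, went the other way, with 10.18, 10.23 and 10.34 in WT γδ and 12.29, 12.21 and 12.15 in WT DN3a cells (-1.97, ratio 0.255, adjusted p = 1.83e-12). Among 31 membrane, sorting and nutrient-sensing genes 13 were higher and 3 lower, with Cln3 (1.01) and Cd164 (0.59) higher and the channel gene Mcoln2 lower (-1.66, ratio 0.317). Among 35 autophagy genes 10 were higher and 5 lower: Tecpr1, which acts in autophagosome maturation, was higher by 1.62 (3.07-fold), and of the proteases that process Atg8 proteins Atg4a (0.91), Atg4d (0.42) and Atg4b (0.26) were higher and Atg4c lower (-1.32). Of 12 further pump genes, Atp6ap1 (0.51) and Atp6v0a2 (0.46) were higher, and Tcirg1 (-0.45) and Atp6v0a1 (-0.57), which like Atp6v0a2 encode forms of subunit a, were lower.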

How the data were processed

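RNA of FACS-sorted mouse thymocytes (12 ng per array, per the labels) was measured on 19 microarrays. The deposited log2 values per probe set were made with RMA in Partek 6.6, per the submitters' processing notes; the sources used here do not say which arrays formed 1 normalization set. RMA equalizes distributions within a set, so values are read relative to that set. Of 41345 probe sets, 23521 had 1 gene symbol, 1814 several and 16010 were not named in the annotation used. For 23328 the symbol was taken through the Entrez ID (RefSeq, GRCm38.p6), whether or not it changed. No member's symbol changed. For 1082 of 22180 genes, 2 of them members, the probe set with the highest mean was kept.

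Groups came from the titles. limma 3.58.1 (R 4.3.3) fitted 6 group means to all 19 arrays without a filter, with Benjamini-Hochberg adjustment and a threshold of 0.05. The fit was also run on simulated data, with results not given here. All adjusted p-values are limma's. Rptor also had an exact permutation test. Arrays have no counts; their number limits the precision. Other cell types' marker values are mean log2 levels over each list.

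Members and lists were chosen with earlier results of these data known. Named were members past a threshold, up to 3 members per role between WT populations by smallest p, and up to 3 genes per role of the wider list; further ones were named after their values were seen. Alternatives were own-group arrays, median centring, quantile normalization, dim genes left out, probe-set means, trended robust variance, the replicate number as a block, and each array left out. Figures used matplotlib 3.10.9 in Python 3.11.15.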

Additional observations from a re-analysis of the deposited data

Results flagged for a closer look

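Among the 4 WT ISP arrays, 4 of 36 genes (the members and Rptor) had 1 array whose gap to its nearest neighbour exceeded Dixon's 95% critical value for 4 values. Chance alone gives about 1 in 20 such groups. Tfeb was 2.98 on WT replicate 4 and 3.17 on the other 3 arrays. Mitf was 3.65 on WT replicate 3 and 3.63 on the other 3 arrays. Neu1, a sialidase, was 6.05 on WT replicate 4 and 6.34 to 6.40 elsewhere. Rptor was 6.34 on WT replicate 3 and 6.47 to 6.49 elsewhere. Exactly equal values were common among the ISP arrays, Tfeb, Mitf and Neu1 included. For Tfeb and Mitf the other 3 arrays were equal, so a gap of any size was flagged. The chance rate above does not apply to them. Atp6v1a had no spread among the WT ISP arrays and could not be flagged.

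A test of the difference between populations picked out 3 members. The genotype effect on Gabarapl1 was lower in ISP than in DN3a cells (interaction -0.77), and so was that on Lamp1 (-0.41). The effect on Gla was lower in ISP than in γδ T cells (-0.77).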

How the results depend on the processing

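No member call reversed under any alternative. Of 98 repeats of the 7 ISP calls, 34 were lost; of 208 repeats of the 16 WT γδ minus DN3a calls, 23; of 40 for ISP minus DN3a, 6; of 20 for ISP minus γδ, none. Only Mcoln1 of the ISP calls and 11 of the 16 WT calls passed under every alternative. With own-group arrays 1 ISP member passed; over all genes this gave 1313 for ISP (2759 with all arrays), 144 for DN3a (218), 345 for γδ (677) and 5831 for WT γδ minus DN3a (5560). Dim genes left out gave 9 ISP members, 1 DN3a member, 18 for WT γδ minus DN3a, 4 for ISP minus DN3a and 4 for ISP minus γδ. Trended robust variance gave 1 DN3a member and 4 for ISP minus γδ. Quantile normalization gave 1 γδ member, 1 for ISP minus DN3a and 3 for ISP minus γδ; median centring gave 2 for ISP minus γδ. Leaving out single arrays gave 3 to 6 ISP members, 0 DN3a, 0 γδ, 12 to 14 for WT γδ minus DN3a, 1 to 3 for ISP minus DN3a (3 without ISP WT replicate 4) and 1 to 3 for ISP minus γδ (3 without ISP WT replicate 1; 2 without ISP Raptorfl/fl replicate 2, ISP WT replicate 3, γδ Raptorfl/fl replicate 3, or γδ WT replicate 1 or 3). With the replicate block, 5 ISP, 0 DN3a, 0 γδ and 14 WT γδ minus DN3a members passed. In the interactions γδ minus DN3a, ISP minus DN3a and ISP minus γδ, 0, 2 and 2 passed. Same-number deviations correlated between -0.104 and 0.242. In DN3a cells same numbers gave 0.242, 0.013 and 0.169, and other numbers -0.25 to 0.111. The main fit did not pair samples by number, but these values do not exclude that the numbers pair them. Among members, the block ended the calls of Ctsb and Lamp1 in ISP cells, of Ctsd and Psap between WT populations, and the Lamp1 interaction (ISP minus DN3a, -0.41). Among the wider-list calls named above it ended those of Flcn in γδ T cells (0.32) and of the Cd63 interaction (γδ minus DN3a, 0.94). The causes of lost calls were not tested.

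Scaling moved the share of all called genes that were higher: in γδ T cells it was 58.1%, and 74.9% with median centring; in DN3a cells 72.5%, and 54.9% with quantile normalization, which called 326 genes there. For γδ minus DN3a it was 65.4% and 75.4% with centring; for ISP minus DN3a 41.2% and 54.0% with quantile normalization; for ISP minus γδ 37.3%, 24.0% with centring and 47.4% with quantile normalization. Tfeb, Mitf and Wipi1 were the members left out as dim.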
